A study of Sus scrofa with 4 samples.

Results

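The inner, white zone of the pig meniscus was compared between the medial and the lateral meniscus, with 1 single-cell library a side. All barcodes of the 2 white zone libraries that held at least 500 UMIs (unique molecular identifiers, each standing for 1 captured RNA molecule) and at least 200 detected genes were taken. These were 7382 cells of the lateral and 7807 cells of the medial meniscus, 15189 of the 27727 cells kept in all 4 libraries of the series. The other 2 libraries came from the outer, red zone of lateral and medial menisci. The menisci were of the pig (Sus scrofa). The labels give no breed, age, animal or treatment and do not say whether any animals were pooled or shared between libraries. Tissue was freed of synovium, divided into zones and digested with pronase and then collagenase P. With 1 library a side there is no spread between replicates, so no test was made anywhere and no p-value is given. Every interval covers counting error only, and differences between animals, dissections or digestions cannot be told apart from differences between the menisci.

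The meniscus is a fibrocartilage that spreads load between femur and tibia. Its outer zone carries vessels and type I collagen fibres, whereas its inner zone lacks vessels and is richer in type II collagen and aggrecan, the fibril and the water-binding proteoglycan of cartilage. Cells of the inner zone are rounded and chondrocyte-like, and the medial and lateral menisci differ in shape, mobility and attachment to the joint capsule.

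The white zone label was checked against markers of cartilage and of vessels. COL2A1, which encodes type II collagen, stood at 5955 CPM (UMIs of a gene per 1000000 UMIs of the library) on the lateral side of the white zone and 6737 CPM on its medial side. The red zone held 331 CPM on the lateral and 63.5 CPM on the medial side. ACAN, the gene of aggrecan, stood at 1789 CPM (lateral) and 1643 CPM (medial) in the white zone, and COMP, an oligomeric matrix protein of cartilage and tendon, at 9960 and 16420 CPM. Both white zone libraries thus carried the genes of the cartilage matrix. Cells that held UMIs of at least 2 different genes of any vascular, immune or Schwann cell list were 456 of the lateral library and 551 of the medial one. The other cells, called matrix cells below, were 93.8% of the lateral (6926 cells) and 92.9% of the medial library (7256 cells).

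The libraries were of like depth. They held 13719381 UMIs in the lateral and 14902274 in the medial white zone, with a median of 1495 and 1617 UMIs and of 613 and 680 genes per cell. Mitochondrially encoded genes gave a median of 1.82% and 2.02% of a cell's UMIs, and ribosomal protein genes gave 16.5% and 14.2% of all UMIs. The white zone libraries shared 20 barcodes, and other pairs of libraries shared 10 to 14.

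Genes were compared that reached 20 CPM in either white zone library, which 4542 genes did. The medial white zone was higher by at least 2-fold in 129 of them (2.84%) and the lateral in 72 (1.59%). The median log2 ratio of medial over lateral over all genes compared was 0.14, with a range of -4.52 to 3.43. A single feature, annotated as HPS5, took 13.05% of the lateral UMIs and 3.06% of the medial, which lowers every other gene's CPM more in the lateral library. With the library totals taken without it, an alternative chosen after the data were seen, all log2 ratios shifted by -0.16 and the counts were 86 higher in medial and 103 higher in lateral. The medial share of the genes past 2-fold was thus 64.2% by library totals and 45.5% without that feature, and 53.5% with TMM scaling, which shifted the ratios by -0.11. Scaling by the median of ratios gave 96 in medial and 76 in lateral, and totals without the 20 most abundant genes gave 131 and 91. Medial thus had more such genes under each of these scalings but the one without HPS5 alone, so the order of the sides depended on the scaling. HPS5 is also among the 20 most abundant genes, and leaving all 20 out kept medial ahead. Gene lists are described below by how many members lay above the median of all genes, which no scaling moves.

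**Figure D1:**
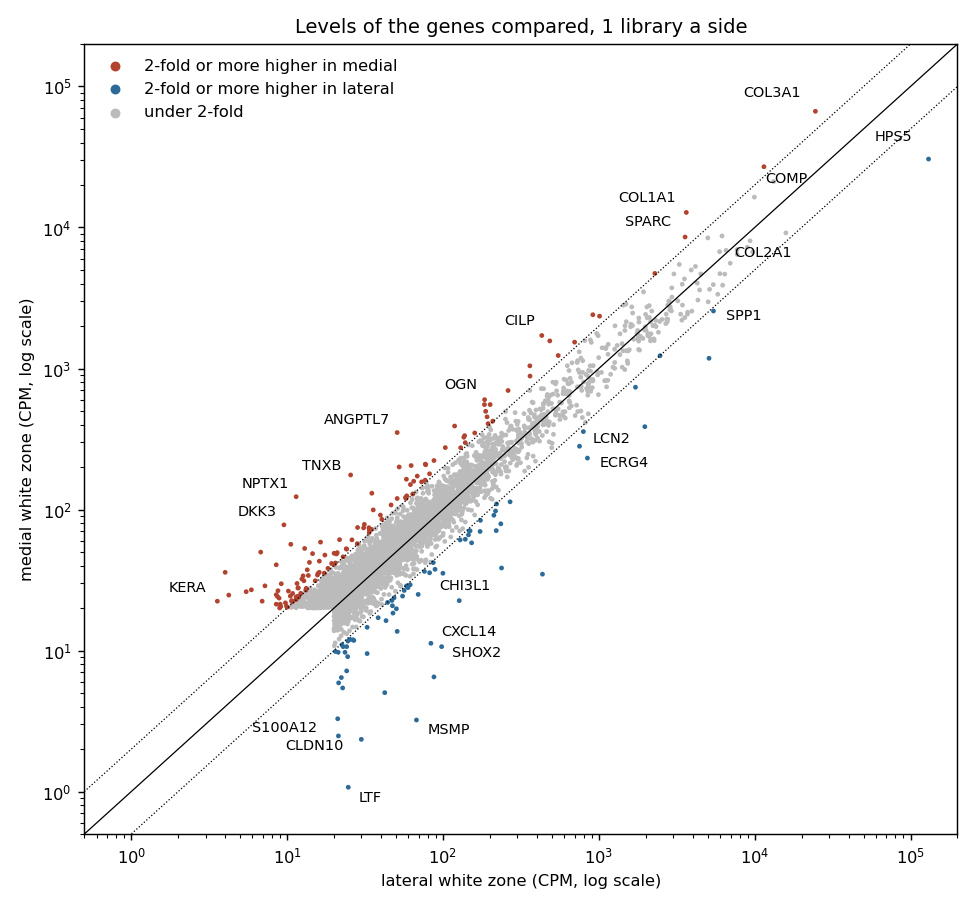
Level of each of the 4542 genes compared, in CPM on log axes, in the lateral (horizontal) and the medial (vertical) white zone library. The solid line marks equal levels and the dotted lines a 2-fold ratio; red points were at least 2-fold higher in medial and blue points in lateral. COL3A1 and COL1A1 lie above the upper dotted line among the most abundant genes, HPS5 lies below the lower line at the right edge, and LTF and MSMP lie farthest below it.

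The genes with the largest ratios toward the medial side were expressed at low to moderate levels. NPTX1, which encodes the secreted neuronal pentraxin 1, had 123 CPM in medial and 11.4 CPM in lateral white zone cells, 10.8-fold higher (95% counting interval 9.16 to 12.8). RERG, which encodes a small RAS-like GTPase, stood at 35.9 against 4.01 CPM, and DKK3, a secreted relative of the WNT antagonists of the dickkopf family, at 77.9 against 9.55 CPM. PAMR1, which encodes a secreted peptidase-domain protein, was 7.36-fold higher in medial, at 49.9 against 6.78 CPM. These 4 genes thus had at most 11.4 CPM in the lateral library. ANGPTL7, an angiopoietin-like secreted protein found in cornea and cartilage, was more abundant, at 352 CPM in medial and 50.9 CPM in lateral, 6.91-fold (6.39 to 7.49). TNXB, the gene of tenascin-X, was 6.88-fold and KERA, the gene of keratocan, 6.27-fold higher in medial. ADAM12, a membrane metalloprotease, was 5.86-fold higher, DPT, which encodes the collagen-binding dermatopontin, 5.37-fold, and C1QTNF3 4.79-fold.

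Collagens and other proteins of fibrous matrix were the abundant genes on the medial side. COL1A1, the main collagen of fibrous tissue, stood at 12784 CPM in medial and 3643 CPM in lateral, 3.51-fold higher (3.48 to 3.54). COL3A1, the gene of type III collagen, stood at 66669 against 24529 CPM and was 2.72-fold higher. COL3A1 alone gave 6.67% of medial and 2.45% of lateral UMIs. Fibronectin (FN1) was 2.63-fold higher, at 2406 against 916 CPM, and SPARC, a collagen-binding matricellular protein, 2.39-fold, at 8559 against 3578 CPM. Of 21 genes compared from the fibrous matrix list, 6 were past 2-fold in medial and 0 in lateral, and 16 lay above the median of all genes. The list's median log2 ratio was 0.71, against 0.14 for all genes. COL1A2 at 1.23 and COL5A1 at 1.17 were the other 2 past 2-fold. COL14A1, a fibril-associated collagen, went the other way at -0.84, with 478 CPM in medial and 857 CPM in lateral.

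Genes typical of fibrocartilage and tendon were higher in medial as well. CILP, a protein of the intermediate layer of cartilage, stood at 1715 CPM in medial and 431 CPM in lateral, 3.98-fold higher (3.87 to 4.10). All 9 genes compared of the fibrocartilage and tendon list lay above the median of all genes, with a list median of 0.85, and 2 of them, CILP and ANGPTL7, were past 2-fold in medial. CILP2 stood at 0.94 and the tendon gene THBS4 at 0.85 on the log2 scale. COMP, at 16420 against 9960 CPM, had a log2 ratio of 0.72.

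The small leucine-rich proteoglycans, which bind collagen fibrils and set their width, differed by member. Of 10 genes compared, 5 were past 2-fold in medial and 0 in lateral, 9 lay above the median of all genes, and the list's median was 0.90. Osteoglycin (OGN) stood at 602 CPM in medial and 185 in lateral, asporin (ASPN) at 391 and 119, and osteomodulin (OMD) at 699 and 262. These genes lie side by side on chromosome 3 of Sscrofa11.1 in RefSeq, in the order OGN, OMD, ASPN and ECM2 between 42116521 and 42243746, and ECM2 had a log2 ratio of 0.60. In a second such cluster on chromosome 5, from 91678601 to 91802362, the members differed in direction. KERA stood at 2.65 and decorin (DCN) at 0.68, while lumican (LUM) stood at -0.30, with 70.5 CPM in medial and 86.8 in lateral.

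Genes of the hyaline cartilage matrix showed no common direction. Of 15 genes compared 1 was past 2-fold in medial and 2 in lateral, 7 lay above the median of all genes and 8 below, and the list's median log2 ratio was -0.03. COL2A1 had a ratio of 0.18 and ACAN of -0.12, both smaller than the 2-fold limit. CLEC3A, a cartilage lectin, was 2.03-fold higher in medial, at 423 against 209 CPM, and falls under 2-fold with TMM scaling or without HPS5. MIA, a small protein secreted by chondrocytes, was 2.38-fold higher in lateral at 270 against 114 CPM. COL9A3, a chain of the type IX collagen that coats type II fibrils, was 2.48-fold higher in lateral at 173 against 69.9 CPM, whereas COL9A1, another chain of it, had a log2 ratio of 0.33 toward medial. SOX9, the transcription factor that drives the chondrocyte programme, stood at 371 CPM in medial and 280 CPM in lateral, a log2 ratio of 0.40.

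The feature annotated as HPS5 dominated the lateral side. It stood at 130492 CPM in lateral and 30559 CPM in medial, 4.27-fold higher. HPS5 encodes a subunit of a complex that sorts cargo to lysosome-related organelles. In RefSeq it lies on chromosome 2 from 40906785 to 40938847, next to a cluster of serum amyloid A genes, with SAA2 at 40972797 to 40976222 and SAA3 at 41021349 to 41025950. Whether its UMIs belong to HPS5 or to a neighbouring gene cannot be told apart from these counts, so the value is given for the feature. No level of a serum amyloid A gene is given here. After every cell was thinned to 1000 UMIs, the median matrix cell held 117 UMIs of the feature in lateral (10th to 90th percentile 10 to 280) and 5 in medial (0 to 107). In endothelial-marker-positive cells the feature was also found, at 61422 CPM in lateral and 8097 CPM in medial and in 69.9% and 33.9% of these cells at 1000 UMIs. How much of it in matrix cells was free RNA was not tested.

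Of genes at 300 CPM or more, LCN2, MMP3, SPP1, SOD2 and ECRG4 had the largest ratios toward lateral after HPS5. LCN2, lipocalin 2, which binds bacterial siderophores, stood at 752 CPM in lateral and 281 CPM in medial, 2.67-fold higher (2.58 to 2.77). MMP3, the stromelysin that cleaves proteoglycans and collagens other than fibrillar ones, was 2.23-fold higher at 796 against 357 CPM. SPP1, the gene of osteopontin, was 2.13-fold higher at 5441 against 2557 CPM, and SOD2, the mitochondrial superoxide dismutase induced by NF-kappaB, 2.00-fold at 2472 against 1233 CPM. SPP1 and SOD2 lay at the 2-fold limit, and each was under it in at least 1 alternative. ECRG4, which encodes a secreted augurin peptide precursor, was 3.65-fold higher in lateral, at 846 against 232 CPM.

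Of the 10 largest ratios toward the lateral side, those of LTF and MSMP led. LTF, the gene of lactoferrin, had 339 UMIs in lateral and 16 in medial, 24.7 against 1.07 CPM, 23.0-fold higher (14.0 to 40.7). MSMP, which encodes a small secreted microseminoprotein, had 928 and 48 UMIs, 67.6 against 3.22 CPM. CLDN10, a claudin of tight junctions, stood at 30.0 against 2.35 CPM. SHOX2, a homeobox transcription factor of limb skeletal patterning, stood at 98.1 CPM in lateral and 10.7 CPM in medial, 9.20-fold higher (7.80 to 10.9). S100A12, a calcium-binding alarmin, was 8.60-fold, CXCL14, a chemokine, 7.43-fold and MMP8, neutrophil collagenase, 6.43-fold higher in lateral. CHI3L1, a chitinase-like glycoprotein secreted by chondrocytes, was more abundant, at 238 against 38.5 CPM, 6.17-fold. MYBPH, a myosin-binding protein gene, was 5.63-fold higher at 127 against 22.6 CPM. CHI3L1 and MYBPH lie next to each other on chromosome 9, with MYBPH ending at 113884544 and CHI3L1 starting at 113885541.

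LTF, LCN2, S100A12, MMP8 and CHI3L1 are also known from neutrophil granules or cytosol, so a list of 12 neutrophil genes was added after the data were seen. Of 8 genes of it that were found, 4 (CSF3R, MPO, ELANE and PADI4) were at 0 UMIs in both white zone libraries. The list summed to 12.1 CPM in lateral and 6.38 CPM in medial, most of it from the general leukocyte genes PTPRC and ITGAM. S100A8 had 14 UMIs in lateral and 2 in medial, and MMP9 had 24 and 3. The part of neutrophils in these 5 differences was not tested.

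Regulators of TGF-beta, BMP, WNT and IGF signalling did not lean to one side as lists. Of 20 TGF-beta and BMP genes compared, 2 were past 2-fold in medial and 2 in lateral, with a median of 0.30. LTBP4, which holds latent TGF-beta in the matrix, was 2.78-fold and TGFBI, a matrix protein induced by TGF-beta, 2.65-fold higher in medial. INHBA, the activin A subunit, was 2.97-fold higher in lateral, at 235 against 79.2 CPM, and ID1, a direct target of BMP signalling, 2.33-fold, at 212 against 91.1 CPM. Of 6 WNT genes DKK3 was past 2-fold in medial, and the secreted antagonists FRZB and WIF1 in lateral, at 153 against 58.1 CPM and at 69.4 against 25.03 CPM. Of 11 IGF and FGF genes IGFBP6, which binds IGF2, was 3.24-fold higher in medial, at 1570 against 485 CPM, and IGFBP2 3.63-fold higher in lateral, at 21.4 against 5.91 CPM. IGF1 itself stood at 83.3 CPM in lateral and 42.4 CPM in medial, a log2 ratio of -0.97.

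SHOX2 stood apart from the other positional genes. Of 19 positional and skeletal transcription factors compared it alone was past 2-fold, and the other members ranged from -0.47 (PRRX2) to 0.70 (HOXD10). The limb genes PITX1 and HOXA11 stood at 0.18 and 0.32. In matrix cells SHOX2 stood at 96.3 CPM in lateral and 3.41 CPM in medial. In cells with at least 2 mural markers, which wrap vessels, it stood at 267 CPM in lateral and 282 CPM in medial, from 143 and 171 cells. Of the 159 medial SHOX2 UMIs 47 lay in matrix cells. In the red zone SHOX2 stood at 100 CPM in lateral and 66.6 CPM in medial.

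Inflammatory genes leaned to lateral and genes of the response to amino acid shortage to medial. Of 12 inflammatory cytokines and NF-kappaB targets compared, 3 (CXCL14, VCAM1 and SOD2) were past 2-fold in lateral and 0 in medial, 12 of 12 lay below the median of all genes, and the list's median was -0.70. VCAM1 was under 2-fold (log2 ratio -0.96) when each cell counted equally. The inhibitor NFKBIA stood at 315 CPM in lateral and 215 in medial, and the chemokine CXCL2 at 128 and 70.6. CXCL8 and CCL2 differed little, at -0.04 and -0.02. Of 21 genes of the amino acid stress response 3 were past 2-fold in medial and 0 in lateral, 18 lay above the median of all genes, and the list's median was 0.53. They were PSAT1 and PSPH, enzymes of serine synthesis, at 3.28-fold and 2.37-fold, and STC2, stanniocalcin 2, at 2.54-fold. ATF4, the transcription factor of that response, stood at -0.07 and ATF5 at -0.80.

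Lists of immediate-early, heat shock, hypoxia and folding genes lay mostly below the median of all genes, and their counts past 2-fold stand beside 2.84% of all genes in medial and 1.59% in lateral. Of 16 immediate-early genes 5 lay above the median and 11 below. NR4A3 was 2.11-fold higher in lateral, but under 2-fold (log2 ratio -0.89) when each cell counted equally, and 0 of the others were past 2-fold. Of 12 heat shock genes 2 lay above the median and 10 below, of 21 hypoxia and glycolysis genes 6 and 15, and of 20 genes of folding in the endoplasmic reticulum 7 and 13, with 0 past 2-fold in each. Of the hypoxia list GAPDH stood at -0.79 and PGK1 at 0.68. Of 53 ribosomal protein genes 43 lay below the median of all genes, with a list median of -0.20 and 0 past 2-fold. Of 13 proteases and inhibitors 4 were past 2-fold in medial, among them ADAMTS2, which trims procollagen, at 131 against 35.0 CPM and the serine protease HTRA1 at 2352 against 1011 CPM, while MMP3 was past it in lateral.

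**Figure D2:**
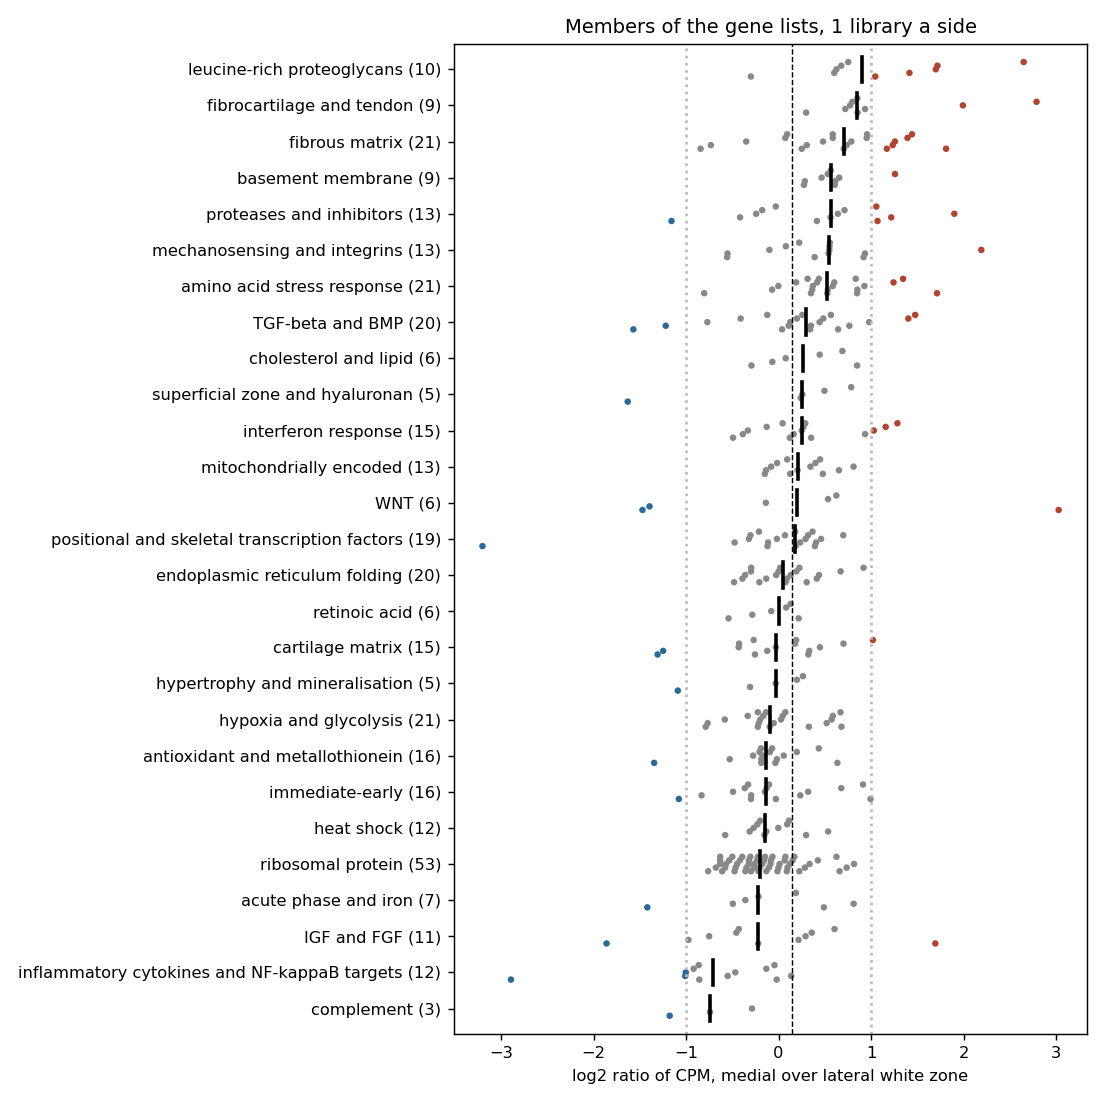
Log2 ratio of CPM, medial over lateral white zone, of each compared member (points) of the 27 pathway lists with at least 3 such members, with the number of members in brackets; cell type marker lists are not drawn. Thick bars mark list medians, the dashed line the median of all genes (0.14) and dotted lines a 2-fold ratio. The leucine-rich proteoglycan, fibrocartilage and fibrous matrix lists have the highest medians of those drawn, and the inflammatory and complement lists the lowest.

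Vessel cells were few on both sides. At 1000 UMIs per cell, 1.40% of lateral cells (exact 95% binomial interval 1.12 to 1.73) and 2.61% of medial cells (2.24 to 3.01) held at least 2 endothelial markers, or 3.06% and 4.19% of cells unthinned. Mural markers were found in 1.17% and 1.12%, and myeloid markers in 1.09% of lateral and 0.627% of medial cells. T or NK cell markers were found in 15 lateral and 4 medial cells unthinned, 0.203% and 0.0512%. PECAM1, the endothelial adhesion gene, stood at 128 CPM in medial and 64.3 CPM in lateral, and PLVAP, of fenestrated endothelium, at 61.2 and 21.7 CPM. At 1000 UMIs PECAM1 had a UMI in 2.70% of medial and 2.04% of lateral cells. Those cells held a mean of 3.57 and 2.35 of its UMIs. For PLVAP the shares were 1.84% and 0.815%, and the means 2.29 and 1.98. How far the number of cells and the RNA per cell each gave the higher sums was not tested. Of 15 interferon genes compared, 3 were past 2-fold in medial and 0 in lateral, with a list median of 0.25 over all cells and -0.13 in matrix cells. In endothelial-marker-positive cells the levels of these 3 were higher in medial. CXCL10 stood at 659 CPM in medial and 311 CPM in lateral there, IFIT1 at 687 and 345, and RSAD2 at 791 and 499. These cells also differed in other genes at 1000 UMIs. PECAM1 had a UMI in 77.5% of them in medial and 64.7% in lateral, COL2A1 in 15.1% and 33.8%, and COL3A1 in 69.7% and 58.65%. How far matrix RNA or matrix cells among them set these levels was not tested. In matrix cells CXCL10 turned to a log2 ratio of -2.28, at 0.290 against 1.41 CPM, IFIT1 to -0.18 and RSAD2 fell to 0.29. VCAM1 stood at 25.7 CPM in lateral and 4.64 CPM in medial matrix cells, a log2 ratio of -2.47 against -1.01 over all cells.

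The share of cells with a UMI followed the level for most named genes. To set aside depth, each cell was thinned at random to 1000 UMIs, which left out 1244 lateral and 944 medial cells below that number. Of 34 named genes past 2-fold in medial, 34 had the larger share of cells in medial, and of 28 in lateral 28 had it in lateral. The 95% intervals of the shares did not overlap for 33 and 27 of them. These genes were picked by ratios of the same UMIs, so the match of share and level is largely set by that choice. It was not counted over all genes compared. CILP had a UMI in 58.4% of medial cells (57.3 to 59.6) and 24.7% of lateral cells (23.7 to 25.8), or 64.5% and 31.7% unthinned. NPTX1 had one in 9.31% and 1.08%, or 15.9% and 1.94% unthinned. ECRG4 had one in 44.8% of lateral and 16.9% of medial cells, or 54.2% and 24.9% unthinned, and LCN2 in 38.0% and 15.9%, or 45.3% and 20.5% unthinned. SHOX2 had one in 9.29% and 0.772%, or 15.3% and 1.33% unthinned.

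Free RNA gives UMIs in cells that do not express a gene, and the endothelial-marker-positive cells served as a gauge of it for matrix genes. Over all 226 lateral and 327 medial such cells the median depth before thinning was 1234 and 1506 UMIs, against 1501 and 1623 in matrix cells. Only 133 lateral and 218 medial ones were among the cells thinned. CILP had a UMI in 12.03% of them in lateral and 22.5% in medial, LCN2 in 16.5% and 4.13%, ECRG4 in 17.3% and 3.67%, NPTX1 in 0.752% and 2.75%, and SHOX2 in 5.26% and 1.38%. Each of these was below the share over all cells on the side where the gene was higher. For SHOX2, though, the lateral gauge had an interval of 2.14 to 10.5%, which holds its share of 9.29% over all lateral cells. For 9 of the 34 medial genes and 6 of the 28 lateral genes the share in endothelial-marker-positive cells was as large as or larger than that over all cells. They were DKK3, TNXB, PLVAP, LTBP4, CXCL10, COL4A1, IFIT1, MMP14 and RSAD2 in medial and VCAM1, ACTA2, NR4A3, CFI, IGFBP2 and S100A12 in lateral. For these the shares lay at or below the gauge, and vessel cells express several of them. The gauge cannot measure free RNA for such genes, so expression by matrix cells is not read from these shares. In matrix cells TNXB stood at 160.5 CPM in medial and 21.3 CPM in lateral, and PLVAP at 0.435 and 0.234 CPM. The lateral gauge of ACTA2, CFI, IGFBP2 and S100A12 was 3.01% each, with an interval of 0.825 to 7.52%. The shares of CXCL14 (3.42%), LTF (1.74%) and CLDN10 (2.49%) in lateral were near those in endothelial-marker-positive cells (3.01%, 1.504% and 2.26%), which rest on few cells.

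**Figure D3:**
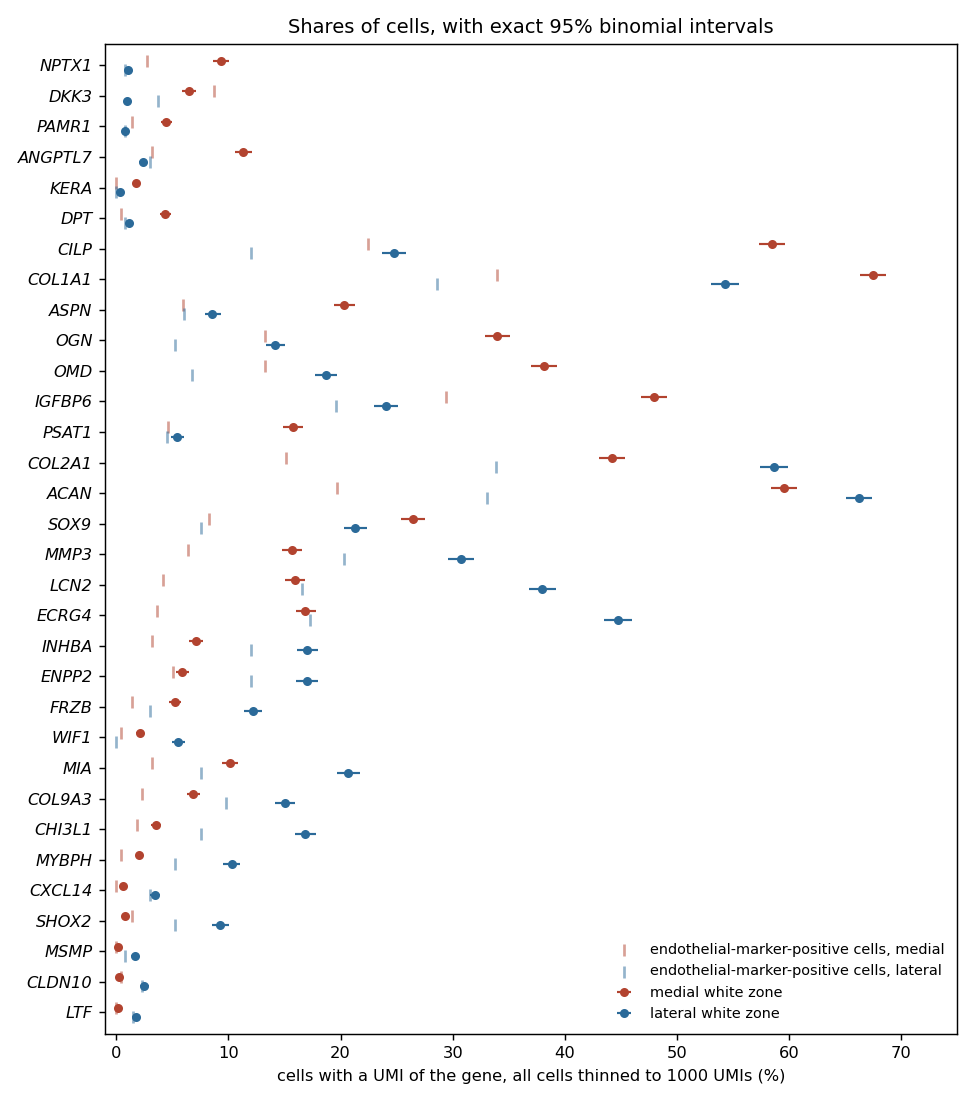
Share of cells (horizontal axis, %) with at least 1 UMI of each of 32 genes after thinning to 1000 UMIs, in the medial (red) and lateral (blue) white zone library. Points and bars are shares with exact 95% binomial intervals, and upright ticks give the share among cells with at least 2 endothelial markers. CILP, OGN and OMD lie farther right in medial and ECRG4 and LCN2 in lateral, while COL2A1 lies at 44.2% in medial and 58.7% in lateral.

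Type II collagen was the exception in which share and level, by library totals, went opposite ways. COL2A1 had a UMI in 44.2% of medial and 58.7% of lateral cells (47.0% and 58.6% unthinned), although its CPM was 1.13-fold higher in medial. That is a log2 ratio of 0.18, and library totals without HPS5 shift all log2 ratios by -0.16. Its levels were thus near equal under that scaling. In endothelial-marker-positive cells the share was 15.1% in medial and 33.8% in lateral. The cells with a UMI held a mean of 15.5 COL2A1 UMIs in medial and 10.25 in lateral, so no order of the menisci is read from its share. In matrix cells the 90th percentile was 23 UMIs per 1000 in medial and 18 in lateral.

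The ratios were taken again among matrix cells within ranges of COL2A1. These ranges are no cell types, and 257 of the 1831 medial and 412 of the 1851 lateral cells of the top range lay at its lower edge. At 1000 UMIs 54.4% of medial and 40.01% of lateral matrix cells had 0 COL2A1 UMIs, 17.4% and 28.3% had 1 to 4, and 28.2% and 31.7% had 5 or more. COL2A1 was not alike within the ranges. From all UMIs of their cells it stood at 82.0 CPM in medial and 168 CPM in lateral in the lowest range, and at 23416 and 16315 CPM in the highest, 1.44-fold higher in medial. In cells without COL2A1, COL1A1 stood at 19568 CPM in medial and 5412 CPM in lateral, a log2 ratio of 1.85. In cells with 5 or more it stood at 4333 and 2722 CPM, a ratio of 0.67. COL3A1 went from 1.99 to 0.75 and IGFBP6 from 1.70 to 0.60 over the same ranges. The medial excess of these genes was thus smaller where COL2A1 was high.

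The ratios of CILP, OGN and HPS5 varied less across the ranges. CILP stood at 1.92, 2.40 and 2.09 from the lowest to the highest range, and OGN at 1.64, 1.48 and 1.55. HPS5 stood at -2.26, -1.83 and -2.25. SHOX2 was far lower in medial in every range, and had 387, 314 and 432 UMIs in the lateral ranges and 24, 3 and 10 in the medial ones, log2 ratios of -4.74, -6.13 and -5.29. COL9A3 and MIA, both higher in lateral, lay nearer to equal levels where COL2A1 was high. They went from -2.43 to -0.78 and from -2.32 to -0.54. ACAN changed sign, from -0.34 in cells without COL2A1 to 0.31 in cells with 5 or more, where it stood at 3486 CPM in medial and 2816 CPM in lateral and COL2A1 was higher in medial as well. Of the named genes past 2-fold, 30 of 34 medial and 27 of 28 lateral ones had the same direction in all 3 ranges. The exceptions were CXCL10, IFIT1, RSAD2, PLVAP and ACTA2. Past 2-fold in that direction in all 3 ranges were 21 medial and 16 lateral genes. The genes were picked by their ratios over the same libraries, so a shared direction largely follows from that choice. It was not counted over all genes compared.

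**Figure D4:**
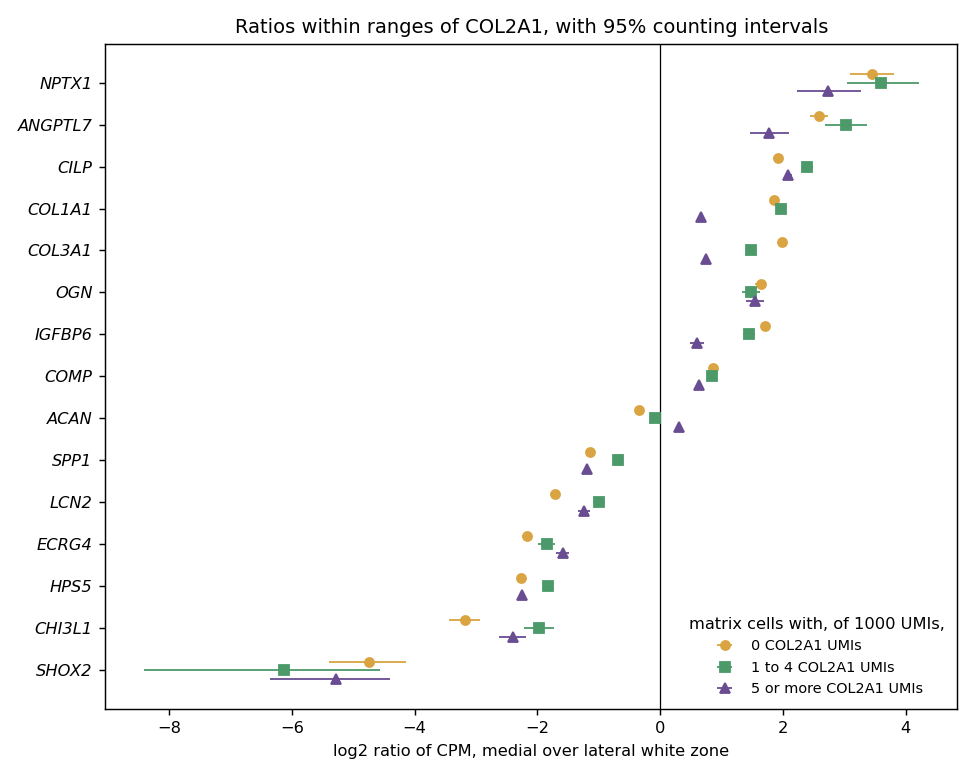
Log2 ratio of CPM, medial over lateral white zone, of 15 genes in matrix cells with 0 (circles), 1 to 4 (squares) or 5 or more (triangles) COL2A1 UMIs among 1000. Bars are 95% counting intervals and the upright line marks equal levels. COL1A1, COL3A1 and IGFBP6 lie nearer to 0 in the highest range, CILP and OGN do not, and SHOX2 lies between -4.74 and -6.13.

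Cells with the genes higher in medial were also described by the other genes they held. In medial matrix cells with NPTX1, 94.7% held COL1A1 and 24.6% COL2A1, against 66.0% and 47.9% of those without it. ANGPTL7 was found in 31.3% of the cells with NPTX1 and in 9.75% of those without. In endothelial-marker-positive cells COL1A1 was found in 33.9% and COL2A1 in 15.1%. For 9 of 10 medial genes looked at (NPTX1, RERG, PAMR1, ANGPTL7, KERA, ADAM12, DPT, C1QTNF3 and ITGA11), the cells with the gene held COL1A1 more often and COL2A1 less often than the rest, the exception being CILP. LCN2 was rarer with all 10, as in 4.31% of the cells with NPTX1 against 17.9% of those without. The 10 were picked by hand, without DKK3 and TNXB, and the same shares were not taken for other genes of this library as a background.

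On the lateral side 9 genes, also picked by hand, were looked at in the same way. COL2A1 was more frequent with 7 of 9 and COL1A1 with 4 of 9. LCN2 was more frequent with 4 of 8 and rarer with 4. LCN2 was found in 65.7% of the 99 matrix cells with MSMP and in 38.6% of those without, and in 58.7% of cells with CHI3L1 against 35.0%. It was found in 34.8% of cells with SHOX2 against 39.5% of those without. In endothelial-marker-positive cells LCN2 was found in 16.5%. COL2A1 was found in 63.1% of cells with SHOX2 against 59.7%, and COL1A1 in 58.2% against 54.9%. CHI3L1 was found in 40.4% of cells with the neighbouring gene MYBPH and in 14.5% of the others, and in 7.52% of endothelial-marker-positive cells.

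The same contrast in the red zone uses the other 2 libraries and shares no library with this one. Over 4247 genes at 20 CPM in both zones, the log2 ratios of the zones correlated at Pearson r = 0.18 and Spearman rho = 0.12, where genes are not independent. Of 155 of them past 2-fold in the white zone 8 were past it the same way in the red zone, 0 the other way, and 103 had the same sign. The share with the same sign was not counted over all 4247 genes, so these 103 have no background and no agreement is read from them. In all, 28 genes were past 2-fold in the red zone. HPS5 stood at 20021 CPM in lateral and 8389 CPM in medial red zone, a log2 ratio of -1.26. MMP3 stood at 609.5 and 233.5 CPM, and C1QTNF3 was higher in medial at 165 against 72.8 CPM. These 3 are the named genes that were past 2-fold the same way in both zones at 20 CPM. WIF1, MIA, COL9A3, MYBPH, MMP8 and CLDN10 were too, but at under 20 CPM in the red zone. Most medial white zone genes were near equal there, with NPTX1 at 90.4 and 86.8 CPM in medial and lateral, and COL1A1 at 23562 and 20391 CPM. COL1A1, TNXB and KERA were also higher in both red zone libraries than in either white zone library. Lower than in either were COL3A1, at 10715 and 8071 CPM in medial and lateral red zone, OMD, at 93.3 and 73.1 CPM, and CILP, at 21.4 and 24.0 CPM. OGN, SPARC and ANGPTL7 lay between the lateral and the medial white zone in both red zone libraries. Whether the menisci were cut at the same place was not tested.

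**Figure D5:**
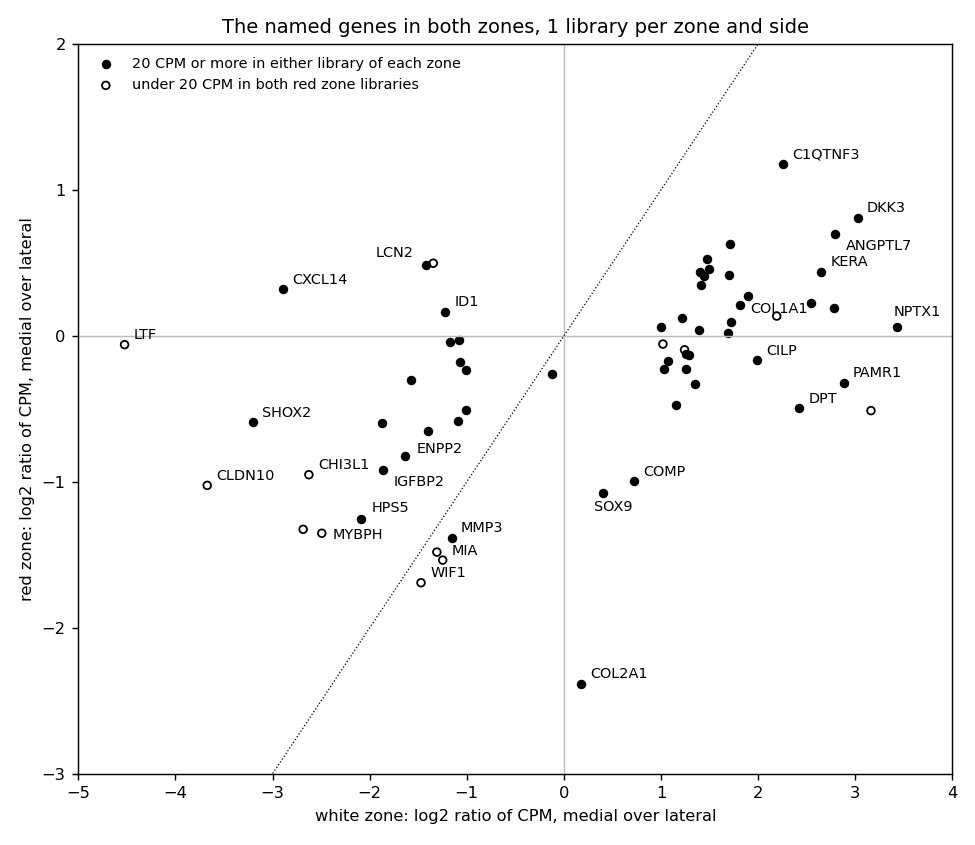
Log2 ratio of CPM, medial over lateral, of the named genes in the white (horizontal) and the red zone (vertical), without MSMP and S100A12, which were at or near 0 in the red zone. Filled points reached 20 CPM in both zones, open points did not in the red zone, and the dotted line marks equal ratios. Most points lie nearer to 0 on the red zone axis, and COL2A1 stands at 0.18 in the white and -2.38 in the red zone.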

How the data were processed

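The deposited files hold raw UMI counts per gene and barcode in 4 libraries, made by the authors with Cell Ranger 6.1.2 and the pig genome Sscrofa11.1, per the submitters' processing notes. Of 21280 features 14811 carried a symbol, 694 were given one from a gene name table and 5775 kept their identifier. Barcodes with at least 500 UMIs and 200 genes were kept; no doublet caller was run, and an alternative left out the 5% of cells with the most UMIs. Counts were summed per library and divided by the library total (CPM). Ratios have exact conditional binomial 95% intervals and shares exact binomial ones. With 1 library a side no test was made. Thinning drew 1000 UMIs per cell without replacement. Cells were not clustered but sorted by fixed marker lists, of which 2 genes made a cell positive.

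Named were genes with a symbol that are not mitochondrially encoded: the 10 largest ratios in each direction at 20 CPM, the 6 largest at 300 CPM, up to 4 members past 2-fold of each of 42 lists, and 11 fixed genes. Other genes in the text are list members. The genes and lists were chosen with earlier results of these data known. TMM factors came from edgeR 4.0.16, and other steps used Python 3.11.15, numpy 2.4.6, scipy 1.17.1 and pandas 2.3.3. Alternatives were other scalings, gene and cell filters, folds, thinning and equal weight per cell. Coordinates come from RefSeq for Sscrofa11.1. PRG4 was not analysed here.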

Additional observations from a re-analysis of the deposited data

Results flagged for a closer look

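For 14 named genes the ratio of medial over lateral, by library totals over all cells, had opposite signs in the 2 zones, with counting intervals clear of equal levels in both. None of these differences was tested, as there was 1 library per zone and side. On the log2 scale PAMR1 stood at 2.88 in the white and -0.32 in the red zone, DPT at 2.42 and -0.50, STC2 at 1.35 and -0.33, COL4A1 at 1.26 and -0.12, SPARC at 1.26 and -0.23, IFIT1 at 1.16 and -0.47, MMP14 at 1.07 and -0.17, and RSAD2 at 1.03 and -0.23. Among cartilage genes COMP stood at 0.72 in the white and -0.997 in the red zone, SOX9 at 0.40 and -1.07, and COL2A1 at 0.18 and -2.38. Of genes higher in the lateral white zone ID1 stood at -1.22 and 0.17, LCN2 at -1.42 and 0.49, and CXCL14 at -2.89 and 0.32. In matrix cells RSAD2 stood at 0.29 in the white and 0.30 in the red zone, IFIT1 at -0.18 and -0.44, and MMP14 at 1.07 and 0.02. The signs of these genes were thus not opposite there, while the others of the 14 kept opposite signs. The white zone value of COL2A1 is near the shift of -0.16 from totals without HPS5.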

How the results depend on the processing

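Of 62 named genes past 2-fold, 51 stayed past it under all 10 settings of scaling, cells and depth that were run on them. ACTA2, CLEC3A, CXCL10, IFIT1, MMP14, NR4A3, PLVAP, RSAD2, SOD2, SPP1 and VCAM1 did not under at least 1. In matrix cells CXCL10 turned to -2.28 and IFIT1 to -0.18; both were higher in endothelial-marker-positive cells than in matrix cells. The counts past 2-fold, 129 in medial and 72 in lateral, moved with the gene filter and the fold. They were 279 and 156 at 5 CPM, 70 and 43 at 50 CPM, and 842 and 1013 with 1 UMI as the only demand. At 1.5-fold they were 537 and 188, and at 3-fold 29 and 23. Library totals without the HPS5 feature, chosen after the data were seen, gave 86 and 103. The medial share was 45.4% with no gene filter and 74.1% at 1.5-fold, against 64.2%. No paired analysis was possible because each side has 1 library. Genes at a few UMIs are limited by depth, and spread between animals is unknown.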
